A study of Homo sapiens with 16 samples.

Results

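Small nucleolar RNA (snoRNA) genes were examined in A375 human melanoma cells and in stable transfectants derived from them. A row of the array table was taken when its annotation named a box C/D gene (SNORD followed by a number) or a H/ACA gene (SNORA followed by a number), alone or together with other genes. This rule took 253 of the 33297 rows. Of these, 163 rows named box C/D snoRNAs, 89 named H/ACA snoRNAs and 1 named both kinds (SNORA33 with SNORD101). Some rows held the same values on every array, so that the 253 rows stood for 238 separate profiles. The rows carried 258 snoRNA symbols, 179 SNORD and 79 SNORA. A single snoRNA was named by 179 rows, several snoRNAs by 23 rows, and a snoRNA together with another gene by 51 rows.

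Total RNA of 16 samples was hybridised to 16 arrays, 4 in each of 4 groups. The RNA was isolated with the RNAspin Mini kit, and how much of the short RNA was recovered was not tested here. A7 and G10 were cells labelled as transfected with catalase, the enzyme that breaks down hydrogen peroxide, and each was 1 clone obtained by dilution. PCDNA3 cells carried the empty vector, and A375 were the untransfected cells. The transfectants (A7, G10 and PCDNA3) were kept in geneticin, and A375 were not said to be. The labels call the 4 arrays of a group biological replicates and give nothing more on how the cultures were kept apart, so the p-values measure the spread between these 4 arrays. Control means the average of the PCDNA3 and A375 group means. All values are log2 expression values, on which a difference of 1 is a factor of 2, and differences are given ± SE from the fit.

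The catalase gene itself (CAT) was measured first. It had 8.51, 8.55, 7.74 and 8.27 in G10, 9.02, 8.92, 9.12 and 9.02 in A7, 8.51, 8.51, 8.53 and 8.71 in PCDNA3, and 8.64, 9.03, 8.65 and 8.62 in A375. The A7 vs control difference was 0.37 ± 0.13 (adjusted p = 0.124). The G10 vs control difference was -0.38 ± 0.13 (adjusted p = 0.0526), so CAT was not above control in the clone labelled G10, and G10 was below A7 by -0.75 (adjusted p = 0.00221). Whether these probes read the transfected copy was not tested. Of 8 melanocyte marker genes 7 were measured and all 7 were above the level of olfactory receptor genes, among them MITF at a mean of 10.30 and SOX10 at 9.47. The leukocyte markers PTPRC (3.0) and CD3E (4.32) and the endothelial markers PECAM1 (3.98) and CDH5 (4.47) were below that level, and of 4 epithelial markers KRT18 and KRT8 were above it. The array medians lay between 5.85 and 5.97, and correlations between arrays of a group were 0.9844 to 0.9949.

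Box C/D snoRNAs guide the methylation of the ribose in ribosomal RNA, and a few of them, such as U3, U8 and U14, take part in cleavage of the precursor. H/ACA snoRNAs guide the conversion of uridine to pseudouridine. Each works inside a small ribonucleoprotein, with the methyltransferase fibrillarin in the box C/D class and the pseudouridine synthase dyskerin in the H/ACA class. Most human snoRNAs are not made from a gene of their own but are trimmed out of the introns of a host gene, often a gene of the translation machinery or a non-coding RNA whose spliced product is not translated. Some snoRNAs, among them the SNORD116 and SNORD115 clusters of the imprinted Prader-Willi region, have no known ribosomal target and are called orphans. In hamster and mouse cells the snoRNAs of the Rpl13a gene are known from the response to lipotoxic and oxidative stress.

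By position in RefSeq, 246 of the 253 rows lay inside another gene, and the rows came from 105 host loci. Hosts of the terminal oligopyrimidine type start transcription at a C followed by a run of pyrimidines. In RefSeq promoter windows (assembly GRCh38.p14, 250 bases before to 50 bases after the annotated start), a run of at least 5 pyrimidines that begins with C, on the transcribed strand and within 5 bases of the start, was present in 39 of 84 host windows (46.4%), against 5749 of 27305 windows of all genes (21.1%). The E-box CACGTG, searched on both strands, was present in 9.52% of host windows and in 7.43% of all windows, and TATAAA in 14.3% and 12%. The windows of the 3 hosts to which most of the results below belong are shown 5′ to 3′ on the transcribed strand. Capitals mark the longest run of pyrimidines counted from a C that lies within 5 bases of the start, which was 3 bases in SNHG1 (chr11:62855836-62856135, minus strand), 11 bases in RPL13A (chr19:49487358-49487657, plus strand) and 4 bases in SNHG14 (chr15:24823358-24823657, plus strand). In RPL13A the count begins at the first C inside that limit, and the pyrimidines go on for 3 more bases upstream of the capitals. A match is a description of these letters only.
SNHG1: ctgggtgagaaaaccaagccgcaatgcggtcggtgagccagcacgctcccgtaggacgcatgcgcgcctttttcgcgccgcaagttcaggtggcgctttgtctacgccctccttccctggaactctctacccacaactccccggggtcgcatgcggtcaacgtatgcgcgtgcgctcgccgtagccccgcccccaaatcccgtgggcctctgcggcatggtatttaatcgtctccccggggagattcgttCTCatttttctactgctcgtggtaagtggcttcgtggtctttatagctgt
RPL13A: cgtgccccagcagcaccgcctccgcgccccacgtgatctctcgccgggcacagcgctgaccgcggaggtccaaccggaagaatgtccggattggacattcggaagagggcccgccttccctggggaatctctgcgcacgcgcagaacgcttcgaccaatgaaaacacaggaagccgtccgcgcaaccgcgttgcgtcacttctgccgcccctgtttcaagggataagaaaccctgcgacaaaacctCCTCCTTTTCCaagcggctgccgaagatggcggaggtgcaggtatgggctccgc
SNHG14: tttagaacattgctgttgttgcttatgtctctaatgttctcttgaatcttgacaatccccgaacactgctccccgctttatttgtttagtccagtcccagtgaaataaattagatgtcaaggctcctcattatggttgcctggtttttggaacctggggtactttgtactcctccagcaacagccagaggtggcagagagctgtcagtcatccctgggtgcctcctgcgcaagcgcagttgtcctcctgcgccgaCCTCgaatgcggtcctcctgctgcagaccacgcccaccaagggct

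To give a floor for the levels, the 95th percentile of 381 rows of olfactory receptor genes was used, which was 5.18. Of the box C/D rows, 97 of 163 were above it in at least 1 group, and of the H/ACA rows 70 of 89. Box C/D rows ranged over 1.74 to 11.17 with a median of 6.17, and 31 rows were over 8 while 39 were under 3. H/ACA rows ranged over 2.81 to 13.25 with a median of 5.95, and 4 rows were under 3. Probes differ in how strongly they bind, so the order of rows is not an order of RNA amounts. The box C/D rows with the highest values were SNORD33 (11.17), SNORD116-15 (10.41) and the row of SNORD116-14 to SNORD116-22 with SNRPN (10.25, present as a pair of identical rows). The highest H/ACA rows named SNORA70 together with its host RPL10, a ribosomal protein gene (10.55 to 13.25), and can hold host mRNA. The median SD within groups, over rows above the floor, was 0.233 for box C/D, 0.186 for H/ACA and 0.151 for all rows.

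The 66 box C/D rows that did not reach the floor were mostly of the imprinted clusters. All 28 SNORD115 rows, brain snoRNAs of the Prader-Willi region, had means of 1.74 to 2.87. The 6 SNORD113 and SNORD114 rows, of the imprinted cluster on chromosome 14, had means of 2.14 to 2.75. Of the 29 SNORD116 rows 18 were above the floor. No row named SNORD118, the gene of U8.

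**Figure D1:**
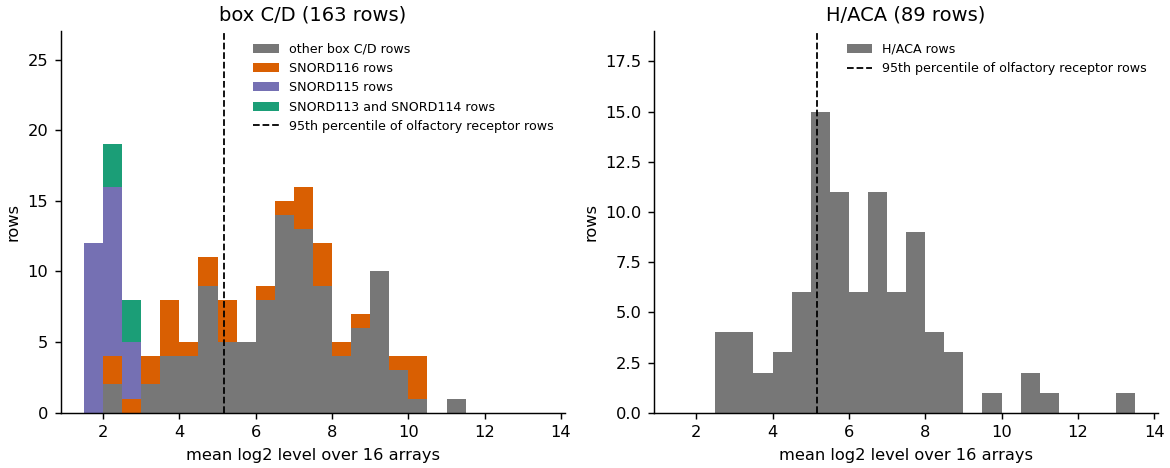
Histograms of the mean log2 level over 16 arrays (x axis) against the number of rows (y axis), for 163 box C/D rows and 89 H/ACA rows, with the SNORD113, SNORD114, SNORD115 and SNORD116 rows in colours of their own and a dashed line at the 95th percentile of olfactory receptor rows (5.18). The SNORD115 rows form a low set at 1.74 to 2.87, and the SNORD116 rows stand on both sides of the line.

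In A7 vs control, 17 of 163 box C/D rows passed the test (limma, Benjamini-Hochberg adjusted p under 0.05 over all rows), 12 higher and 5 lower, or 10.4% against 5.69% of all 33297 rows (3.46% higher and 2.23% lower). The 12 higher rows were 9 profiles, 8 of them SNORD116 rows and the other SNORD64, and the 5 lower rows were a single profile, that of SNORD3. Identical rows thus raise the share. Counted by profile, 9 of 151 were higher and 1 lower, against 1132 higher and 726 lower of the 32740 profiles of all rows. Outside the SNHG14 locus of SNORD116 and SNORD64, 0 of 97 box C/D profiles were higher and 1 was lower. Of the H/ACA rows 1 of 89 passed, SNORA71C, which was lower. The median difference of all box C/D rows was 0.02. The calls in A7 depended on single arrays: of the 10 box C/D profiles called, 2 were called with each array left out in turn.

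In G10 vs control, 18 of 163 box C/D rows passed, 6 higher and 12 lower, or 11% against 17.8% of all rows (9.92% higher and 7.9% lower). Of the H/ACA rows 16 of 89 passed, 4 higher and 12 lower, or 18%. The share of box C/D rows was thus below that of the whole table, and the share of H/ACA rows was near it. The median difference was -0.06 for box C/D and -0.15 for H/ACA, where 64 of 89 rows were negative. In G10 vs A7, 30 box C/D rows passed (7 higher, 23 lower, 18.4%) and 14 H/ACA rows (7 higher, 7 lower, 15.7%), against 15.2% of all rows (7.83% higher and 7.38% lower). The 23 lower box C/D rows were 20 profiles. Outside the SNHG14 locus 7 of 103 box C/D rows were higher and 8 lower, or 14.6%, near the share of all rows. In PCDNA3 vs A375 no snoRNA row passed by limma, against 0.123% of all rows (0.045% higher and 0.0781% lower). In that comparison 31 of 163 box C/D and 17 of 89 H/ACA rows had an unadjusted limma p under 0.05, against 4198 of all 33297 rows. With array weights 2 box C/D rows passed, a setting for which the share of all rows is not given here. Both clones were set against the same control arrays, so their differences from control are not independent of each other.

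**Figure D2:**
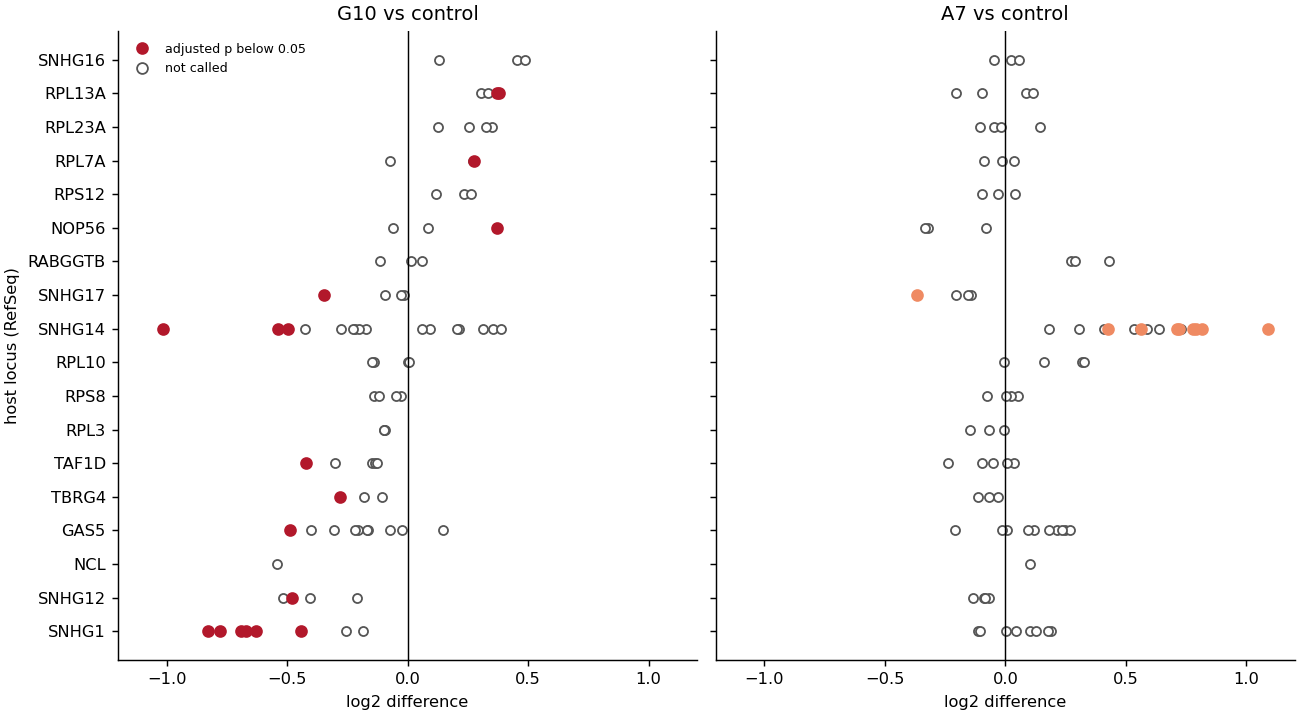
Log2 differences of snoRNA profiles above the floor (x axis) by host locus (y axis), for loci with at least 3 profiles, in G10 vs control on the left and A7 vs control on the right, with filled points those with an adjusted p under 0.05. The 8 SNHG1 rows lie below 0 in G10 (-0.83 to -0.19), and all points of SNHG14, the locus of SNORD116, lie above 0 in A7.

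The clearest group in G10 was the set of box C/D snoRNAs encoded in SNHG1, a non-coding host whose introns carry SNORD22 and SNORD25 to SNORD31, most of them methylation guides for ribosomal RNA. All 8 rows were below control in G10, with differences from -0.83 to -0.19 (median -0.65). Of the 8 rows 6 passed the test, against 7.9% of all rows called lower. In A7 none passed and the median difference was 0.07. SNORD28 had 7.73, 8.20, 8.50 and 8.48 in G10, 9.25, 9.03, 8.92 and 8.61 in A7, 9.43, 9.47, 9.32 and 9.18 in PCDNA3, and 8.81, 8.80, 8.74 and 8.73 in A375. All 4 G10 values were below all 12 others, and G10 vs control was -0.83 ± 0.14 (adjusted p = 0.000408). SNORD26 had 8.22, 8.38, 8.63 and 8.55 in G10, 9.35, 9.33, 9.18 and 9.19 in A7, 9.12, 9.43, 9.37 and 9.17 in PCDNA3, and 9.19, 8.81, 9.04 and 8.95 in A375. The groups again did not overlap, with G10 vs control at -0.69 ± 0.10 (adjusted p = 9.08e-05) and G10 vs A7 at -0.82 ± 0.11 (adjusted p = 8.05e-05). SNORD25 had 5.92, 6.32, 6.57 and 6.14 in G10, 7.18, 7.37, 7.03 and 7.21 in A7, 6.99, 7.09, 7.0 and 7.38 in PCDNA3, and 7.01, 6.59, 6.94 and 7.13 in A375. Its G10 arrays were the lowest 4 of the 16, and the difference from control was -0.78 ± 0.13 (adjusted p = 0.000346).

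SNORD30 (-0.67 ± 0.16, adjusted p = 0.00618), SNORD27 (-0.63 ± 0.18, adjusted p = 0.0216) and SNORD29 (-0.44 ± 0.12, adjusted p = 0.02) were also lower in G10 than in control. SNORD31 (-0.26) and SNORD22 (-0.19, adjusted p = 0.274), a snoRNA needed for small-subunit RNA processing, were below control without passing. In G10 vs A7, 7 of the 8 rows were lower by the test, which became 3 in a fit of only these groups or without G10 array 1, and 4 without A7 array 1 or G10 array 2. SNORD25, SNORD26 and SNORD28 passed in each of these settings, while SNORD22 (-0.37, adjusted p = 0.0477) was lost with any of 7 of the 8 arrays left out. The control groups were not level with each other at this locus, PCDNA3 being above A375 by a median of 0.26 with no row called. Against A375 alone 3 of 8 rows were lower in G10 (median difference -0.47), against PCDNA3 alone 6 of 8, and without G10 array 1 or G10 array 2, 4 of 8. The median over the 8 rows was 6.97, 7.18, 7.45 and 7.32 on the G10 arrays and lay between 7.43 and 7.97 on the other 12, so that G10 array 3 overlapped A375.

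**Figure D3:**
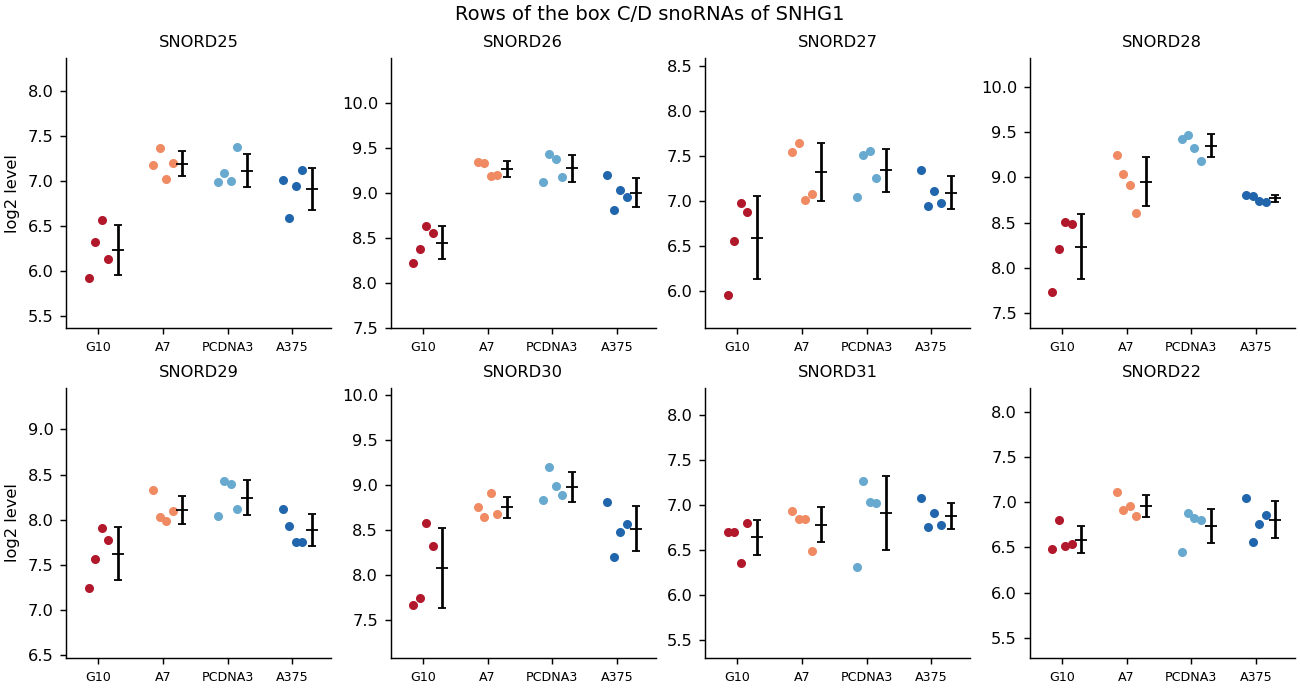
Log2 level of the 8 SNHG1 snoRNA rows on each array, with the groups in the order G10, A7, PCDNA3 and A375, coloured points for arrays, and a black mark and bar for the group mean ± SD (n = 4). For SNORD25, SNORD26 and SNORD28 the 4 G10 arrays lie below all others.

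Other box C/D snoRNAs moved in G10 in the opposite direction. SNORD41, a methylation guide in an intron of the nuclear import receptor gene TNPO2, had 7.15, 7.43, 7.43 and 6.84 in G10, 6.52, 6.20, 6.16 and 6.52 in A7, 6.40, 6.80, 6.65 and 6.67 in PCDNA3, and 6.68, 6.71, 6.51 and 5.90 in A375. Every G10 array was above every other array, and the difference was 0.67 ± 0.15 vs control (adjusted p = 0.00553) and 0.86 ± 0.18 vs A7 (adjusted p = 0.00285). The TNPO2 row was also higher in G10 (0.47 ± 0.08, adjusted p = 0.00034). SNORD57, a guide for small-subunit RNA in an intron of NOP56, whose protein is itself a core subunit of the box C/D particle, had 9.45, 9.32, 9.54 and 9.52 in G10, 8.78, 8.59, 8.87 and 8.77 in A7, 9.25, 9.52, 9.04 and 9.16 in PCDNA3, and 9.20, 8.68, 9.02 and 8.81 in A375. It was higher in G10 by 0.70 ± 0.12 vs A7 (adjusted p = 0.000726), with no overlap, and by 0.37 ± 0.11 vs control (adjusted p = 0.0217), where PCDNA3 array 2 reached into the G10 range. SNORD117 was higher as well (0.68 ± 0.16, adjusted p = 0.00824), though its mean over all arrays was 4.64, below the floor.

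The snoRNAs of RPL13A, the ribosomal protein gene whose long pyrimidine run is shown above, were above control in G10 at all 4 rows. Of the 4 rows 2 passed, against 9.92% of all rows called higher. This count became 0 against PCDNA3 alone and 1 to 3 with an array left out. SNORD32A had 7.82, 7.84, 8.23 and 7.91 in G10, 7.71, 7.54, 7.71 and 7.67 in A7, 7.60, 7.77, 7.58 and 7.57 in PCDNA3, and 7.82, 7.40, 7.38 and 7.45 in A375. The lowest G10 array was level with the highest A375 array, and the difference from control was 0.38 ± 0.10 (adjusted p = 0.011). SNORD35A was higher by 0.37 ± 0.12 (adjusted p = 0.045), a call lost with any of 9 arrays left out. SNORD34 (0.34 ± 0.14, adjusted p = 0.129) and SNORD33 (0.30 ± 0.14, adjusted p = 0.157) did not pass vs control. SNORD33 had 11.54, 11.40, 11.68 and 11.16 in G10 against 11.17, 10.63, 10.97 and 10.97 in A7, a difference of 0.51 ± 0.16 (adjusted p = 0.0404) with 1 G10 array inside the A7 range. The row that names RPL13A with its pseudogenes had group means of 13.03 in G10, 12.79 in A7, 12.82 in PCDNA3 and 12.76 in A375, and was higher in G10 vs control by 0.24 ± 0.06 (adjusted p = 0.00913).

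Among other ribosomal protein hosts, the row of SNORD36A and SNORD36C with RPL7A was higher in G10 vs control (0.27 ± 0.08, adjusted p = 0.0344). SNORD58A, in an intron of RPL17, was higher in G10 vs A7 (0.77 ± 0.19, adjusted p = 0.00864), as was the RPL17 row (0.79 ± 0.13, adjusted p = 0.000347). SNORD54 and its host RPS20 were likewise higher in G10 vs A7, by 0.61 ± 0.19 (adjusted p = 0.0419) and 0.71 ± 0.14 (adjusted p = 0.00191). The 4 rows in RPL23A were above control in G10 (0.13 to 0.35) with none called, and the 3 in NCL, the gene of nucleolin, were below it (-0.54 to -0.16) with none called.

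GAS5 is a non-coding host known from growth arrest, with a row for 10 of its snoRNAs. In G10 vs control 9 of the 10 rows were negative and 1 passed, near the 7.9% of all rows called lower. This was SNORD81 (-0.49 ± 0.16, adjusted p = 0.0403), although its call was lost with any of 10 of the 12 arrays left out. SNORD81 was lower in G10 vs A7 too (-0.74 ± 0.18, adjusted p = 0.00973). U14 snoRNAs take part in making small-subunit RNA, and those with a row here, SNORD14C and SNORD14E, lie in introns of the chaperone gene HSPA8. SNORD14C had 5.83, 6.38, 7.63 and 7.54 in G10, 7.92, 8.03, 7.35 and 7.15 in A7, 8.15, 8.48, 8.30 and 8.22 in PCDNA3, and 7.57, 6.81, 7.13 and 7.15 in A375. G10 arrays 1 and 2 were low and arrays 3 and 4 were inside the A7 range. The difference from control was -0.88 ± 0.28 (adjusted p = 0.0426), but the adjusted p was 0.627 against A375 alone, and the call was lost with any of 9 arrays left out. HSPA8 itself differed by -0.11 from control (adjusted p = 0.568), with 13.09, 13.06, 13.69 and 13.44 on the G10 arrays.

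U3 (SNORD3), which has genes of its own and is needed for the early cleavages of the ribosomal precursor, was the only box C/D profile called lower in A7. Its 5 rows, identical in value, had 9.20, 9.01, 9.09 and 9.14 in G10, 8.58, 8.29, 8.85 and 8.98 in A7, 9.54, 9.52, 8.89 and 9.41 in PCDNA3, and 9.79, 8.75, 9.20 and 9.24 in A375. The A7 values overlapped those of both control groups. The A7 vs control difference was -0.62 ± 0.17 (adjusted p = 0.0474), and the call was lost with any of 9 of the 12 arrays left out, against A375 alone (adjusted p = 0.142) and against PCDNA3 alone (adjusted p = 0.0731). SNORD13, an independent gene whose RNA guides acetylation of small-subunit RNA, had a mean of 9.83 and did not pass in either clone (adjusted p = 0.338 in A7 and 0.23 in G10).

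The largest locus was SNHG14 on chromosome 15, the long non-coding host of the Prader-Willi region, expressed from the paternal chromosome, with 60 rows (54 profiles) of SNORD64, SNORD109A with SNORD109B, SNORD115 and SNORD116. Its SNORD116 copies are orphan snoRNAs, and their loss is a central part of the Prader-Willi deletion. Over the 29 SNORD116 rows the A7 vs control differences ran from -0.12 to 0.82 with a median of 0.53. Of the rows 27 were positive and 11 (8 profiles) were higher by the test, or 37.9% against 3.46% of all rows. In G10 vs control 18 of the 29 rows were negative (median -0.17), as were 19270 of all 33297 rows. By the test 3 were lower, or 10.3%, near the 7.9% of all rows. In G10 vs A7 all 29 rows were negative, from -1.42 to -0.01 (median -0.50). Of them 13 passed, or 44.8% against 7.38% of all rows lower.

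PCDNA3 and A375 were not level at this locus either, PCDNA3 being lower than A375 in 28 of the 29 rows (median -0.33) with none called. Against A375 alone none of the 29 rows passed in A7 (median 0.35, lowest adjusted p = 0.083), and against PCDNA3 alone 14 rows passed (median 0.68). Without A7 array 2, 2 rows were called, and without A7 array 1, 4 rows. The G10 vs control median was 0.06 against PCDNA3 alone. The sign of the A7 median thus held against either control, its calls did not hold against A375 alone, and the sign of the G10 median turned against PCDNA3 alone.

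SNORD116 copies are commonly sorted by sequence into group I (copies 1 to 9), group II (copies 10 to 24) and group III (copies 25 to 30). All 7 group I profiles were above the floor, were negative in G10 vs control (-1.02 to -0.17, 3 called) and were lower in G10 vs A7 by the test. Of the 14 group II profiles, 9 were positive and 5 negative in G10 vs control (median 0.08) with none called, and 1 of the 14 passed in G10 vs A7. In A7 vs control 7 of 7 profiles were positive in group I (4 called), 12 of 14 in group II (2 called) and 5 of 5 in group III (2 called). Of group III, 1 profile reached the floor, that of SNORD116-28. The difference between the sequence groups was not tested.

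Among group I rows, SNORD116-6 had 4.51, 4.91, 4.26 and 3.88 in G10, 6.19, 5.97, 5.62 and 5.46 in A7, 5.56, 5.55, 5.09 and 5.07 in PCDNA3, and 5.39, 5.23, 5.92 and 5.42 in A375. All G10 arrays were below all others, with -1.02 ± 0.19 vs control (adjusted p = 0.00117) and -1.42 ± 0.22 vs A7 (adjusted p = 0.000265). In A7 it was 0.41 above control (adjusted p = 0.28). The row of SNORD116-4 with SNRPN had 6.89, 6.97, 6.72 and 6.59 in G10, 7.45, 7.81, 7.54 and 7.57 in A7, 7.04, 7.24, 7.0 and 7.20 in PCDNA3, and 7.49, 7.18, 7.66 and 7.50 in A375. G10 was again lowest, at -0.50 ± 0.10 vs control (adjusted p = 0.00243) and -0.80 ± 0.12 vs A7 (adjusted p = 0.000173). The row of SNORD116-3, SNORD116-5, SNORD116-7 and SNORD116-9, copies that the probes cannot tell apart, had 7.05, 7.24, 6.08 and 6.48 in G10, 7.82, 8.0, 7.59 and 7.51 in A7, 6.62, 6.79, 6.52 and 6.69 in PCDNA3, and 7.51, 6.85, 7.08 and 7.24 in A375. The lowest A7 array was level with the highest A375 array. The difference was 0.82 ± 0.18 in A7 vs control (adjusted p = 0.0129, and 0.0613 at most without A7 array 1 or 2) and -1.02 ± 0.21 in G10 vs A7 (adjusted p = 0.00287).

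In group II, SNORD116-15 had 10.67, 10.97, 10.08 and 9.93 in G10, 10.86, 10.91, 10.85 and 10.72 in A7, 10.39, 10.18, 9.67 and 9.94 in PCDNA3, and 10.76, 10.35, 10.15 and 10.15 in A375. G10 arrays 1 and 2 were near A7 and arrays 3 and 4 near PCDNA3. Neither clone passed, at 0.64 ± 0.18 in A7 (adjusted p = 0.0541) and 0.21 in G10 (adjusted p = 0.52). SNORD116-21 showed the same division of the G10 arrays (9.25, 9.53, 7.99 and 8.14) and did not pass in A7 (0.73 ± 0.26, adjusted p = 0.132). SNORD116-22 had 4.70, 5.25, 3.78 and 4.73 in G10 against 5.61, 6.48, 5.60 and 5.59 in A7, and was lower in G10 vs A7 by -1.21 ± 0.25 (adjusted p = 0.00275). Its A7 vs control call (0.78 ± 0.21, adjusted p = 0.0421) was lost with any of the 12 arrays left out. In group III, SNORD116-28 had 4.50, 4.44, 3.89 and 4.53 in G10, 5.24, 5.68, 5.17 and 5.34 in A7, 3.99, 4.34, 4.63 and 4.41 in PCDNA3, and 4.90, 4.87, 4.96 and 4.41 in A375. All A7 arrays were above all others, with 0.79 ± 0.15 vs control (adjusted p = 0.00435, and 0.083 against A375 alone). Its mean and that of SNORD116-22 reached the floor in A7 and in no other group, so these differences are set against values at background level.

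**Figure D4:**
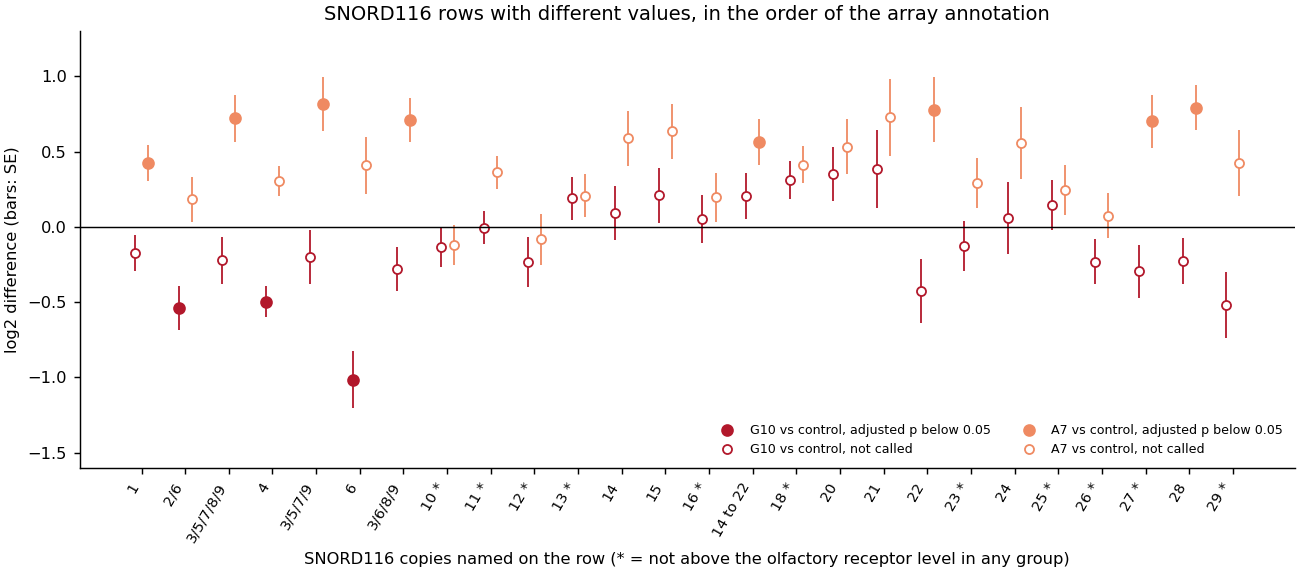
Log2 difference ± SE (y axis) of each SNORD116 profile, by the copies its row names (x axis), for G10 vs control and A7 vs control, with filled points those with an adjusted p under 0.05 and stars for profiles not above the floor. The A7 points lie above 0 for all profiles but those of copies 10 and 12, and the 3 filled G10 points, among them SNORD116-6 at -1.02, belong to copies 1 to 9.

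The neighbours of the cluster were compared as well. SNORD64, on a row with PWAR5, had 6.78, 7.07, 5.48 and 5.65 in G10, 7.22, 7.54, 6.77 and 6.55 in A7, 4.89, 5.20, 5.38 and 5.16 in PCDNA3, and 6.95, 6.95, 6.31 and 6.62 in A375. PCDNA3 stood below every array of the other groups. The A7 vs control difference of 1.09 ± 0.27 (adjusted p = 0.0247) was 0.31 against A375 alone (adjusted p = 0.703), and the call was lost without A7 array 1 or A7 array 2. PCDNA3 vs A375 was -1.55 (adjusted p = 0.061). The row of SNURF and SNRPN, the protein-coding start of the same transcription unit, had 8.05, 7.94, 7.33 and 7.35 in G10, 8.50, 8.52, 8.72 and 8.77 in A7, 7.85, 8.04, 7.86 and 7.98 in PCDNA3, and 8.57, 8.38, 8.28 and 8.20 in A375. It was higher in A7 vs control (0.48 ± 0.13, adjusted p = 0.0391), with A375 array 1 inside the A7 range, and lower in G10 vs control (-0.48 ± 0.13, adjusted p = 0.017), with G10 arrays 1 and 2 at the level of PCDNA3. The control groups stood apart here, at means of 7.93 in PCDNA3 and 8.36 in A375, and each clone was nearer to 1 of them than to their average. UBE3A, the gene that SNHG14 overlaps on the other strand, was lower in G10 (-0.27, adjusted p = 0.0323) and not in A7 (0.01, adjusted p = 0.965). NDN, MAGEL2 and ATP10A did not pass in either clone.

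Among the H/ACA rows, the guide SNORA67, within the locus of the translation helicase gene EIF4A1, was the clearest rise in G10. It had 8.0, 8.12, 8.29 and 7.97 in G10, 7.75, 7.54, 7.85 and 7.68 in A7, 7.60, 7.67, 7.68 and 7.61 in PCDNA3, and 7.70, 7.38, 7.27 and 7.65 in A375. No other array reached the G10 values, and the difference was 0.52 ± 0.09 vs control (adjusted p = 0.00077) and 0.39 ± 0.11 vs A7 (adjusted p = 0.0201). The row of SNORA48 with EIF4A1 was higher by 0.30 ± 0.09 vs control (adjusted p = 0.0298). SNORA7B had 6.53, 6.73, 6.73 and 6.59 in G10, 6.13, 6.52, 6.10 and 6.07 in A7, 5.31, 6.11, 5.93 and 6.11 in PCDNA3, and 6.35, 6.27, 6.0 and 6.39 in A375. It was highest in G10 without overlap (0.58 ± 0.14 vs control, adjusted p = 0.00708), and its host RPL32P3 did not pass (0.34, adjusted p = 0.214). The 4 H/ACA rows higher in G10 were completed by SNORA60 with SNHG11 (0.26 ± 0.07, adjusted p = 0.0128).

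SNORA10, a guide in the ribosomal protein gene RPS2, had 7.70, 7.69, 7.60 and 7.70 in G10, 8.04, 7.92, 8.14 and 7.97 in A7, 7.72, 8.35, 8.35 and 8.15 in PCDNA3, and 8.13, 8.03, 8.27 and 8.13 in A375. The G10 arrays were the lowest 4, with PCDNA3 array 1 next to them, and the difference from control was -0.47 ± 0.10 (adjusted p = 0.00378). RPS2 itself differed by -0.01 (adjusted p = 0.952). SNORA54 had 4.61, 4.96, 4.88 and 4.24 in G10 against 5.39, 5.20, 5.33 and 5.23 in PCDNA3 and 5.24, 5.26, 4.65 and 5.70 in A375, and was lower by -0.58 ± 0.16 (adjusted p = 0.0222), beside its host NAP1L4, a histone chaperone gene (-0.50 ± 0.12, adjusted p = 0.00839). SNORA71D was lower in G10 (-0.35 ± 0.08, adjusted p = 0.00372, with 7.94 to 8.04 in G10 against 8.11 to 8.41 in PCDNA3 and 8.33 to 8.55 in A375), as was its non-coding host SNHG17 (-0.46 ± 0.07, adjusted p = 0.000354). SNORA71C, of the same host, was the H/ACA row called in A7, at 8.46, 8.54, 8.20 and 8.46 in A7 against 8.50, 8.86, 8.91 and 8.66 in PCDNA3 and 8.69, 8.74, 8.89 and 8.98 in A375. Its difference from control was -0.37 ± 0.09 (adjusted p = 0.0291), a call lost with any of 7 arrays left out.

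Further H/ACA rows lower in G10 vs control were SNORA3A (-0.46 ± 0.14, adjusted p = 0.0305), the 3 rows of SNORA15 (-0.45 ± 0.13 at each, lowest adjusted p = 0.0285), SNORA40 with TAF1D (-0.42, adjusted p = 0.0232), SNORA5C (-0.28, adjusted p = 0.0209) and SNORA55 (-0.26, adjusted p = 0.0481). The row of SNORA16A with SNHG12 was lower by -0.48 ± 0.15 (adjusted p = 0.0414), with 6.61, 6.58, 7.42 and 7.29 on the G10 arrays, and the adjusted p was 0.481 against A375 alone. SNORA3A had 7.30, 7.31, 7.60 and 7.84 in G10 against 8.17, 7.98, 8.50 and 8.35 in A7 and was lower in G10 vs A7 by -0.74 ± 0.16 (adjusted p = 0.00468), while its host RPL27A differed by -0.06 (adjusted p = 0.738). SNORA23, in an intron of the nuclear import receptor gene IPO7, had 4.84, 5.02, 5.23 and 5.67 in G10 against 6.36, 6.54, 5.97 and 5.58 in A7, with 1 array of each inside the range of the other, and was lower in G10 vs A7 by -0.92 ± 0.25 (adjusted p = 0.0206). IPO7 was lower as well (-0.45 ± 0.09, adjusted p = 0.0019). SNORA24 (0.53 ± 0.16, adjusted p = 0.0375) was higher in G10 vs A7, and SNORA3B (-0.52 ± 0.17, adjusted p = 0.0461) was lower.

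The calls in G10 vs control differed in how far they held. SNORD25, SNORD26, SNORD28, SNORD41, SNORD116-6, SNORA10 and SNORA67 passed with each array left out in turn, against either control group alone, and under the other settings tried without a minimum fold. SNORD117 passed in the same settings except the filter on dim rows, which removed its row as below the floor. Against A375 alone, SNORD30 (adjusted p = 0.13), SNORD27 (0.128), SNORD29 (0.274), SNORA7B (0.128), SNORA3A (0.106), SNORA40 (0.439), SNORA54 (0.0749) and SNORA5C (0.0771) no longer passed. Against PCDNA3 alone, SNORD32A (adjusted p = 0.0646), SNORD57 (0.306), SNORD116-4 (0.0727), SNORA60 (0.15) and SNORA71D (0.0606) no longer passed. Without G10 array 1 or 2 the calls of SNORD27, SNORD29 and SNORA40 were lost (adjusted p up to 0.0951), as was that of SNORA54 without G10 array 1 or 4 (up to 0.0937), that of SNORA5C without G10 array 3 (0.0694) and that of SNORD57 without G10 array 1, 3 or 4 (up to 0.0592). The rows of SNORA48, SNORA15, SNORA16A, SNORA3A, SNORA55 and SNORD36A with SNORD36C were each lost with at least 3 of the 12 arrays. No called row changed sign with an array left out.

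In G10 vs A7, 17 of 27 called box C/D profiles and 4 of 14 called H/ACA profiles passed with each array left out in turn. Among those that passed in every such fit were SNORD25, SNORD26, SNORD28, SNORD41, SNORD57, SNORD58A, SNORD81, the group I rows of SNORD116, SNORA3A and SNORA48. The calls of SNORA24 and SNORD33 were lost with 5 and 6 of the 8 arrays (adjusted p up to 0.113 and 0.126), and those of SNORD54 and SNORA3B with 6 of the 8 each (up to 0.128 and 0.145). SNORD35A was lost with 7 of the 8 (up to 0.0921), SNORA23 without A7 array 1 or 2 or G10 array 1 or 2 (up to 0.0697), and SNORA67 without A7 array 2 or G10 array 3 (up to 0.0646). In a fit of only these groups SNORA24, SNORA3B, SNORA67, SNORD33 and SNORD54 did not pass.

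The positions of single probes were not used here. A snoRNA is also part of the unspliced host RNA, so mature snoRNA and precursor cannot be told apart, and the 51 rows that also name another gene can hold its mRNA. In bulk RNA, fewer cells with a transcript and less of it per cell cannot be told apart. For 71 host loci a row with the host as its single symbol was found. Where several such rows were present, the one with the highest mean was taken. Its position was not checked against that of the host locus. The median difference of the snoRNA rows, those that also name another gene included, was set beside that of this host row. The signs were the same at 45 of 71 loci in G10 vs control, 50 in A7 vs control, 49 in G10 vs A7 and 48 in PCDNA3 vs A375. Across loci, which share the same arrays and are not independent, Pearson's r was 0.462, 0.262, 0.599 and 0.356, and Spearman's rho was 0.576, 0.325, 0.644 and 0.362, in the same order.

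**Figure D5:**
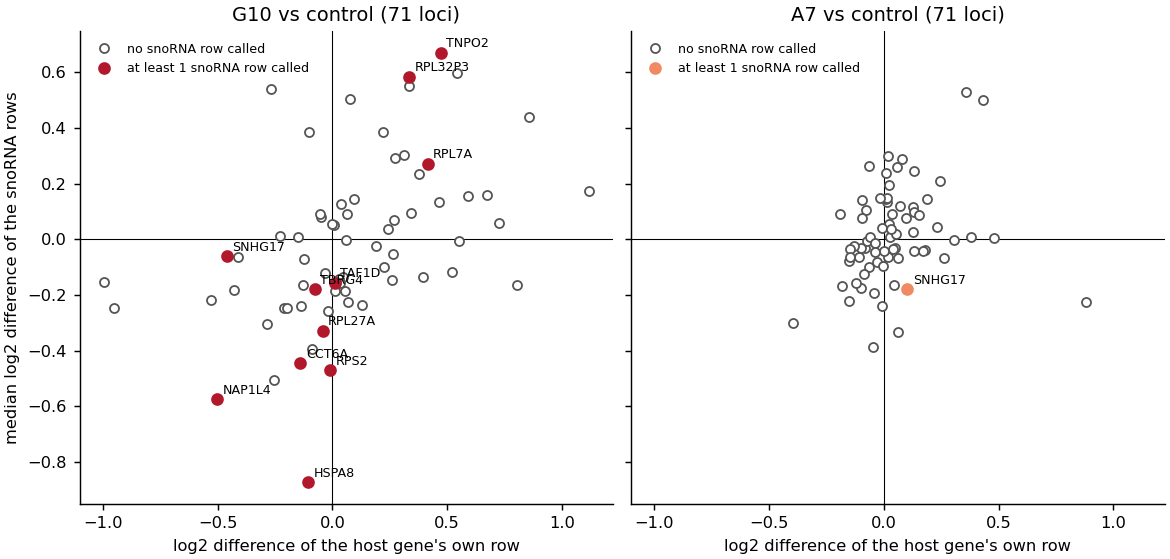
Median log2 difference of the snoRNA rows of a locus (y axis) against the log2 difference of the host's own row (x axis), for G10 vs control on the left and A7 vs control on the right, with each point 1 of 71 loci and filled, named points those with a called snoRNA row. TNPO2 and NAP1L4 lie on the side of their host (0.47 and -0.50), while RPS2 (-0.01) and HSPA8 (-0.11) lie below 0 with a host near 0.

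The proteins that carry snoRNAs were compared in the same fit. Of the 4 box C/D core proteins 2 had a row of their own. FBL, fibrillarin, did not pass in either clone. NOP58, which binds the snoRNA beside NOP56, was lower in G10 vs control (-0.49 ± 0.13, adjusted p = 0.016), with 10.29, 10.39, 10.97 and 11.03 on the G10 arrays. Of all rows 7.9% were called lower in this comparison. The 4 H/ACA core proteins were all measured and none passed vs control in either clone. DKC1, dyskerin, was lower in G10 vs A7 (-0.54 ± 0.17, adjusted p = 0.0398), with 9.36, 9.48, 10.27 and 10.15 on the G10 arrays. In G10 vs A7 7.38% of all rows were called lower. G10 arrays 1 and 2 were the lower ones at both genes, as at SNORD14C, and what sets these arrays apart was not tested.

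Of 15 assembly factors 14 were measured. In A7 vs control RUVBL1, an AAA ATPase of the assembly complex, was higher (0.31, adjusted p = 0.0247) and TGS1, the enzyme that modifies the cap of U3, was lower (-0.48 ± 0.10, adjusted p = 0.0072). These 2 of 14 stand against 5.69% of all rows called. In G10 vs control ZNHIT3 (0.27, adjusted p = 0.035) and PIH1D1 (0.43, adjusted p = 0.0226) were higher. They are 2 of 14 as well, near the 17.8% of all rows called. Of 41 genes of precursor processing and RNA polymerase I, 40 were measured, of which 4 were higher and 4 lower in G10 vs control, near the 17.8% of all rows, and 2 were higher and 1 lower in A7 vs control, near the 5.69% of all rows. The polymerase subunit genes POLR1C (0.51) and POLR1D (0.60) were among those higher in G10, and DDX10, an RNA helicase gene (-1.33), was among those lower. Of 22 non-coding host genes on the list used here, 3 had a row of their own. In G10 vs control ZFAS1 (0.52, adjusted p = 0.00015) and EPB41L4A-AS1 (0.67, adjusted p = 0.00203) were higher and SNHG17 was lower, against 17.8% of all rows called. SNHG29, the non-coding host of SNORD49A, was not on the list but had a row too. It was higher in G10 vs control (0.54 ± 0.10, adjusted p = 0.00134).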

How the data were processed

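Total RNA of 16 samples was hybridised to Affymetrix Human Gene 1.0 ST arrays, and the authors deposited log2 expression values that were background-corrected, normalised and summarised by RMA, 33297 rows in all; the submitters' processing notes also name limma. No column belonged to a sample outside the series (0 such columns). The values were used as deposited. Rows were named through the platform annotation, in which 19460 rows had 1 symbol, 1754 several and 12083 none. Array values carry no read depth, and the number of arrays (4 per group) limits the precision.

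Group means over all 16 arrays were estimated for every row with limma 3.58.1 in R 4.3.3 (lmFit and eBayes), and p-values were adjusted by Benjamini-Hochberg over all rows of a comparison, with 0.05 as the limit. A7 and G10 were each compared with control, taken as PCDNA3 and A375 with equal weight, then G10 with A7 and PCDNA3 with A375. The procedure was tested on simulated data. The genome build behind the array table is not given in the sources used here, so host loci were found with RefSeq (GRCh38.p14) as the gene whose span holds the snoRNA, SNHG14 where it applied and otherwise the shortest such gene. Strand was not used, as the table of positions held none.

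Rows named in the text were the 6 with the largest difference among called rows above the olfactory receptor level, per class and comparison, with the snoRNAs of precursor cleavage, the tandem families, the rows with the highest levels, members of the protein lists that passed, and hosts. Other called rows and loci were named after their values were seen, as were the rows of GAS5, RPL23A and NCL. The members and lists were chosen with earlier results of these data known. Alternatives were another normalisation, a filter on dim rows, other variance models, a replicate block, each control group alone, a minimum difference and each array left out.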

Additional observations from a re-analysis of the deposited data

Results flagged for a closer look

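In 7 of 96 groups of 4 arrays tested over the named rows, a single array stood apart from its group, and about 1 in 20 groups is expected to show this by chance. A7 array 2 had 6.48 at SNORD116-22 (next array 5.61) and 6.52 at SNORA7B (next 6.13). G10 array 3 had 3.89 at SNORD116-28 (next 4.44) and 7.60 at SNORA10 (next 7.69). A375 array 4 had 4.41 at SNORD116-28 (next 4.87) and 7.04 at SNORA16A with SNHG12 (next 7.25). PCDNA3 array 2 had 6.17 at SNORA23 (next 5.65).

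At 15 named rows the clones differed from each other by the test (limma, adjusted p under 0.05), with estimated differences from control of opposite sign. Rows were named in part for a large called difference in G10 vs A7, so their passing there adds no support. Over all rows 15.2% passed in G10 vs A7. None of these rows was called against control in both clones. SNORD116-22 and SNORD116-28 reached the floor in A7 alone. In G10 vs A7, SNORD116-6 differed by -1.42, SNORD116-22 by -1.21, SNORD116-28 by -1.02, and the row of SNORD116-3, SNORD116-5, SNORD116-7 and SNORD116-9 by -1.02. The row of those copies with SNORD116-8 differed by -0.94 and that of SNORD116-3, SNORD116-6, SNORD116-8 and SNORD116-9 by -0.99. Of the SNHG1 snoRNAs, SNORD25 differed by -0.96 and SNORD26 by -0.82. SNORA23 differed by -0.92, SNORA3A by -0.74, SNORA3B by -0.52, and the rows of SNORA70 with RPL10 by -0.47 and -0.46. SNORD41 was higher in G10 by 0.86 and SNORA24 by 0.53.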

How the results depend on the processing

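No called row changed sign in any setting, and of 28 named row and comparison pairs 15 were called in every one that set no minimum difference. Counts moved as follows. For box C/D in A7 vs control, 17 rows became 0 with A375 alone as control, and 2 to 15 with an array left out (2 without A7 array 2, 5 without A7 array 1, 8 without A7 array 3, A375 array 3 or 4 or PCDNA3 array 4, and 11 without PCDNA3 array 2). The 12 higher and 5 lower rows became 12 and 0 after quantile normalisation. For H/ACA in A7 vs control, 1 row became 3 in a fit of only the compared groups, with dim rows filtered, by limma-trend and with A375 alone, 4 with array weights, 0 with the replicate block or PCDNA3 alone, and 0 to 2 with an array left out (0 without A375 array 3 or 4, PCDNA3 array 3 or A7 array 1 or 3). For G10 vs control, box C/D gave 13 to 20 and H/ACA 8 to 15 with an array left out (8 without G10 array 1), H/ACA gave 9 with A375 alone, and centring turned the split of 6 higher and 12 lower into 9 and 9 for box C/D and 4 and 12 into 5 and 7 for H/ACA. For G10 vs A7, box C/D gave 22 to 29 and H/ACA 7 to 13 with an array left out (7 without A7 array 2, 9 without A7 array 1 or 4 or G10 array 1 or 2), and H/ACA gave 8 in a fit of only these groups. For PCDNA3 vs A375, box C/D gave 5 in a fit of only these groups, 1 with dim rows filtered, 2 with array weights, 1 with the replicate block and 0 with any array left out, and H/ACA gave 1 in a fit of only these groups and 0 with any array left out. A log2 difference of at least 1 left 1, 1 and 5 box C/D rows in A7 vs control, G10 vs control and G10 vs A7, and 0 H/ACA rows in each. The causes were not tested. Same-numbered arrays deviated together with correlations of -0.161 to 0.23 and 5 of 16 arrays were closest to their own number, so the numbers do not pair the arrays; with the replicate block box C/D gave 23, 17 and 26 rows in these comparisons and H/ACA 0, 16 and 11. With 4 arrays per group and a spread above that of all rows, small differences of snoRNA rows could not be resolved.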

Other observations

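Other small RNAs of the same arrays were measured as values, in classes chosen after earlier results were seen. The 50 rows named for RNU genes (33 profiles), the spliceosomal and related nuclear RNAs, had a median difference of -0.46 in G10 vs control and -0.44 in A7 vs control. Of them 19 rows (11 profiles) were lower and none higher in G10, against 7.9% of all rows lower, and 13 rows (7 profiles) were lower and none higher in A7, against 2.23% of all rows lower (limma, adjusted p under 0.05). Both clones were set against the same control arrays, and several rows hold identical values. The control groups were not level here, with 36 of 50 rows negative in PCDNA3 vs A375 (median -0.13) and none called. Mean deviations of arrays from the row means were 0.10 to 0.46 in A375 and -0.04 to 0.19 in PCDNA3. They were -0.33 to 0.04 in A7, which overlapped PCDNA3, and -0.36 to -0.09 in G10. In G10 vs A7 no RNU row passed by limma, and 6 of 50 had an unadjusted p under 0.05, against 8532 of all 33297 rows. Of 21 rows of small Cajal body RNAs (SCARNA), which guide the modification of spliceosomal RNAs, 2 were higher and 3 lower in G10 vs control, or 23.8% against 17.8% of all rows, and 1 was lower in A7 vs control, or 4.76% against 5.69% of all rows.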
